A study of Mus musculus with 24 samples.

Results

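The light-chain V segments are the germline gene pieces that code for most of the variable part of the antibody light chain. Members were all V genes of the kappa (Igkv) and lambda (Iglv) loci with 3 or more counts in at least 6 of the 24 libraries. The rule took 79 of the 103 annotated V genes, which were 76 of 100 kappa genes on chromosome 6 and 3 of 3 lambda genes on chromosome 16. The other 24 genes were under the rule, and 3 of them had no count in any library. Igkv10-95 and Igkv4-69 were just inside it with 6 libraries each, and Igkv11-125 and Igkv1-99 were just outside with 5 each. The kappa members came from 17 V families, with 28 genes on the plus strand and 48 on the minus strand. The full table held 55536 genes.

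RNA was taken from the distal small intestine (ileum) of 24 C57BL/6N mice in 4 groups of 6, with 3 males and 3 females in each group. The mice were 4 to 5 weeks old at the start and were fed for 20 weeks on a control diet (CD) or a high-fat diet (HFD), in which fat supplied 10% and 60% of the calories. In CDmetf and HFDmetf the diet was then combined for 10 weeks with metformin, a glucose-lowering drug, at 50 mg/kg body mass/day in the drinking water, while CD and HFD received none. Each library came from 1 animal of a cage of 3, and cages were started in blocks shifted in time. Libraries are named by group, sex and replicate number, so HFD F2 is the HFD female with replicate number 2.

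Reads assigned to genes ranged from 1829690 to 40606442 per library. Summed markers of the intestinal epithelium stood at 8018 to 16650 CPM (counts per 1000000, scaled with TMM, the trimmed mean of M-values), and all 10 of them passed the filter on low counts. Sex-linked transcripts went against the label in 2 libraries. HFD M2 had Xist at 1098 CPM and Ddx3y at 0 CPM, and HFD F2 had Xist at 0.426 CPM and Ddx3y at 37.5 CPM. CD M3 had 85.4% of its counts in only 10 genes, where the other 23 libraries had 9.22 to 36.6%. Several differences between groups are given with and without these 3 libraries. Splits by sex, and sex as a covariate in the tests, go by the labels.

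Each B cell joins a single light-chain V segment to a short J segment, and the joined exon is spliced to a constant exon (Igkc for kappa, Iglc1, Iglc2 and Iglc3 for lambda). All descendants of that B cell carry the same V segment, apart from somatic mutations. Plasma cells of the gut wall, most of which make immunoglobulin A (IgA), transcribe the joined gene at a very high rate. Mice use kappa chains far more often than lambda chains. In a piece of tissue, fewer cells of a type and less RNA per cell cannot be told apart.

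The V exons of the 4 segments that took over 30% of the light-chain V reads of a library are shown first, because they carried the strongest dominance in the data. They are followed by the other 2 marker segments, Igkv4-72 and Igkv3-7, and by Igkv6-32, whose CD and HFD libraries did not overlap. Sequences were read from GRCm38 at the exon limits of the GENCODE annotation. Kappa exons of more than 300 bases are shown by their last 300. Capitals mark the stretch from the last in-frame cysteine codon to the end of the segment, which is the germline part of CDR3, the loop that meets the J segment. Positions of the bases shown are Igkv19-93 at chr6:68736297-68736594 (minus), Igkv8-24 at chr6:70216858-70217157 (minus), Igkv5-48 at chr6:69726573-69726870 (minus), Igkv6-25 at chr6:70215660-70215957 (plus), Igkv4-72 at chr6:69226854-69227153 (minus), Igkv3-7 at chr6:70607737-70608036 (plus) and Igkv6-32 at chr6:70074024-70074321 (minus).
Igkv19-93: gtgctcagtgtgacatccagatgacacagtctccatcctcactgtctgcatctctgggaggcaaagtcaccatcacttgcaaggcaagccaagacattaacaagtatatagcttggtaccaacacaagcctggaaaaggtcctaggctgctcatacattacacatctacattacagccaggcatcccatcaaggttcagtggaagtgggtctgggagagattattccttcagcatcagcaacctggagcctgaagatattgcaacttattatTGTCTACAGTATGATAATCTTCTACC
Igkv8-24: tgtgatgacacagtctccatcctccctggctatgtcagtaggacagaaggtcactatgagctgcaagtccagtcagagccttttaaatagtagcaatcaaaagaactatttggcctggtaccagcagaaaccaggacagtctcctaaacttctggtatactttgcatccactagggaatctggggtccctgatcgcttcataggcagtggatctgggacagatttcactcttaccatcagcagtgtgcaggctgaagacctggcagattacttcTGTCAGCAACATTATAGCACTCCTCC
Igkv5-48: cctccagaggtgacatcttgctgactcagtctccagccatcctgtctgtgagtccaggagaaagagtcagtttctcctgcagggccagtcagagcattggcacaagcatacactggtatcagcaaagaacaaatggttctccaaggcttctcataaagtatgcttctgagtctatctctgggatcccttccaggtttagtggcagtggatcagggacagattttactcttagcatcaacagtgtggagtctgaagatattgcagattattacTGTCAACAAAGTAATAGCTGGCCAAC
Igkv6-25: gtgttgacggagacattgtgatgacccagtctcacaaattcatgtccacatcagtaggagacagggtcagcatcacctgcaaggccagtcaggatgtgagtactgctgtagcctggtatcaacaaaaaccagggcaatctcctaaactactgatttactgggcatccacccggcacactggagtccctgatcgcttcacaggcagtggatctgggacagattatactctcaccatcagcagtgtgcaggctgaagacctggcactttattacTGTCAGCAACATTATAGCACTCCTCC
Igkv4-72: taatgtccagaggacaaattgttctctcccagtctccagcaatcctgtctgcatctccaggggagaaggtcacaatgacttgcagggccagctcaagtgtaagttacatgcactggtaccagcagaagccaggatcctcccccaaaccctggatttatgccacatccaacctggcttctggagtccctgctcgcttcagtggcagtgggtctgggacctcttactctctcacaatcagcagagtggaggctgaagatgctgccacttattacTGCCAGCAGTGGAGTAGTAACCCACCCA
Igkv3-7: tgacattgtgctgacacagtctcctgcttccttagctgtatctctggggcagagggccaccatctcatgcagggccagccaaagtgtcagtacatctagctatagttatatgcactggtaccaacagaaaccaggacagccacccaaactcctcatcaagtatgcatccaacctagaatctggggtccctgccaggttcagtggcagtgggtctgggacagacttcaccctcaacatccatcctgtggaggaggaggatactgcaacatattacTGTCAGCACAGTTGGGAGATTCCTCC
Igkv6-32: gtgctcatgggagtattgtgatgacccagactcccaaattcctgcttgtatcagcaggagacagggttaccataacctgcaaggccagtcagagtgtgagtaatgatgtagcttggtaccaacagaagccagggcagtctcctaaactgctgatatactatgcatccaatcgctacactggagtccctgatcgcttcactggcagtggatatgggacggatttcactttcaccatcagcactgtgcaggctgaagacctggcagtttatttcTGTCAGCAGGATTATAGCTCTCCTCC

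Igkv8-24 and Igkv6-25 are neighbours on opposite strands with 900 bases between their V exons. Both end in the same 26 bases from the cysteine codon onward. Igkv4-72 shares its end with Igkv4-68 and Igkv4-59. Over the 79 members there were 71 different ends, and 15 members shared their end with at least 1 other member.

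V exons of members were 294 to 324 bases long (median 303). The most similar other annotated V segment of each member was identical at 56.2 to 99.0% of positions (median 95.3%), and for 42 members it reached 95% or more. A stretch of 100 bases, the length of a read, was found unchanged in another annotated gene for 37 members, and a read lying wholly in such a stretch cannot be placed by its own sequence, although its mate may place it. The number of reads lost in this way was not measured. The other 42 members had no such stretch, and these included Igkv19-93, Igkv8-24, Igkv5-48, Igkv4-72, Igkv6-32, Igkv14-111, Igkv2-109 and Igkv8-19. Of the windows of Igkv6-25, 18.9% were shared with Igkv6-17. Igkv1-117 shared 16.1% with Igkv1-110, Igkv5-43 shared 33.6% with Igkv5-45 and Igkv6-20 shared 55.8% with Igkv6-29. These are shares of windows and not of reads, so the uncertainty that they bring to the levels of these segments is not known. Somatic mutations in expressed genes also move reads away from the germline sequence.

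Iglv1 and Iglv2 differ from each other at only 9 of 305 bases (97.0% identity). They are shown because their reads followed different constant genes. The first 300 bases of Iglv1 lie at chr16:19085022-19085321 and those of Iglv2 at chr16:19260406-19260705, both on the minus strand. Here capitals mark the positions at which the pair differs.
Iglv1: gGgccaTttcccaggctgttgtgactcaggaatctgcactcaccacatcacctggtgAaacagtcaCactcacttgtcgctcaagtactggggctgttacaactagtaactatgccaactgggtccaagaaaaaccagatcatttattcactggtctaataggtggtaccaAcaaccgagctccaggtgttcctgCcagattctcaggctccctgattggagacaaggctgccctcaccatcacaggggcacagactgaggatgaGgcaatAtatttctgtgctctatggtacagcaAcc
Iglv2: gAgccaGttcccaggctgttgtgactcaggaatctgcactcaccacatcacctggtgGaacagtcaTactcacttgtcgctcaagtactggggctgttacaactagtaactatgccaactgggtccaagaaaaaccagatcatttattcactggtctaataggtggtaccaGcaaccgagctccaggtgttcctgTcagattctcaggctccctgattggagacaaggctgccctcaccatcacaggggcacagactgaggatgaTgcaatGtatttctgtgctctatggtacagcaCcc

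Light-chain V reads were present in every library, with 649 reads in HFDmetf F2 and 30406 in HFD F3. Between 49 and 79 of the 79 members had at least 1 read, and 14 members had 3 or more reads in all 24 libraries. The mean level was highest for Igkv1-117 at 37.1 CPM and Igkv2-109 at 36.8 CPM. Igkv1-110 followed at 29.1 CPM, Iglv1 at 28.2 CPM, Igkv19-93 at 23.4 CPM, Igkv10-96 at 21.4 CPM and Igkv8-24 at 20.1 CPM. Igkv5-48 averaged 19.4 CPM, Igkv4-59 19.2 CPM and Igkv15-103 18.2 CPM. The V exons are of nearly equal length, so these levels need little correction for length. Reads lost to stretches shared with other genes were not measured and may differ between segments. Averaged over libraries, 5 segments held 26.5% of the light-chain V reads, 10 held 42.7% and 20 held 66.6%.

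Single libraries departed far from this average. The leading segment took 8.71 to 45.3% of the light-chain V reads of its library, and between 2 and 9 segments (median 5.5) held 50% of them. There were 16 different leading segments among the 24 libraries. Of these, 11 led a single library, 4 led 2 libraries each, and Igkv2-109 led 5, with at least 1 library in each of the 4 groups. Within CDmetf, HFD and HFDmetf, no segment led more than a single library.

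**Figure D1:**
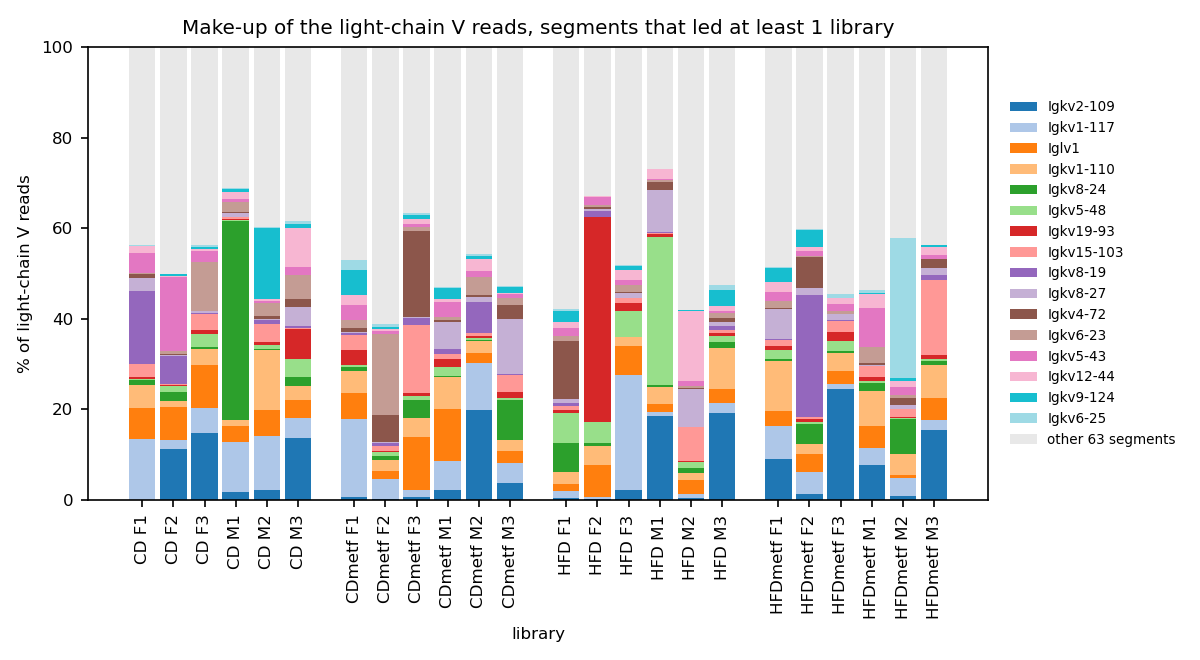
Share of the light-chain V reads (%, vertical axis) taken in each of the 24 libraries (horizontal axis, by group) by the 16 segments that led at least 1 library, with the other 63 segments in pale grey. The tallest single blocks are Igkv19-93 in HFD F2 at 45.3% and Igkv8-24 in CD M1 at 43.8%, and both segments are far smaller in every other library.

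Igkv19-93 had 984 of the 2174 light-chain V reads of HFD F2, a share of 45.3% with a 95% Wilson interval of 43.2 to 47.4%. This was a level of 419 CPM. The other 23 libraries had a median of 4.32 CPM and a highest value of 25.7 CPM. HFD F2 was far above all other libraries for this segment, and it is among the libraries whose sex-linked transcripts went against the label.

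Igkv8-24 had 1970 of 4495 reads in CD M1, a share of 43.8% (interval 42.4 to 45.3%) and a level of 201 CPM. The median of the other 23 libraries was 5.42 CPM and the highest was 68.6 CPM, in HFDmetf M2. In that library its neighbour Igkv6-25 led with 886 of 2874 reads, which was 30.8% (interval 29.2 to 32.5%) or 276 CPM. Elsewhere Igkv6-25 had a median of 1.41 CPM and at most 15.9 CPM.

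Igkv5-48 led HFD M1 with 795 of 2434 reads, a share of 32.7% (interval 30.8 to 34.6%) and 229 CPM, against a median of 6.87 CPM and a highest value of 42.8 CPM in the others. Leading shares over 20% were seen in 7 libraries, of which 1 was CD, none was CDmetf, 3 were HFD and 3 were HFDmetf. At the other end, HFDmetf M1 was led by Igkv5-43 with 8.71% (interval 7.75 to 9.78%). Intervals cover counting error only, since reads without molecular identifiers are not independent molecules.

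Most members were uneven across libraries. Of the 51 members with a median of 1 CPM or more, 30 had a highest library at 10 times their median or above, and 11 stayed under 5 times. Igkv5-39 was the most even of the 51, with its highest library at 2.27 times the median and a range of 1.20 to 8.70 CPM. The highest library of a member was a CD library for 12 of the 79 members, a CDmetf library for 23, an HFD library for 24 and an HFDmetf library for 20.

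**Figure D2:**
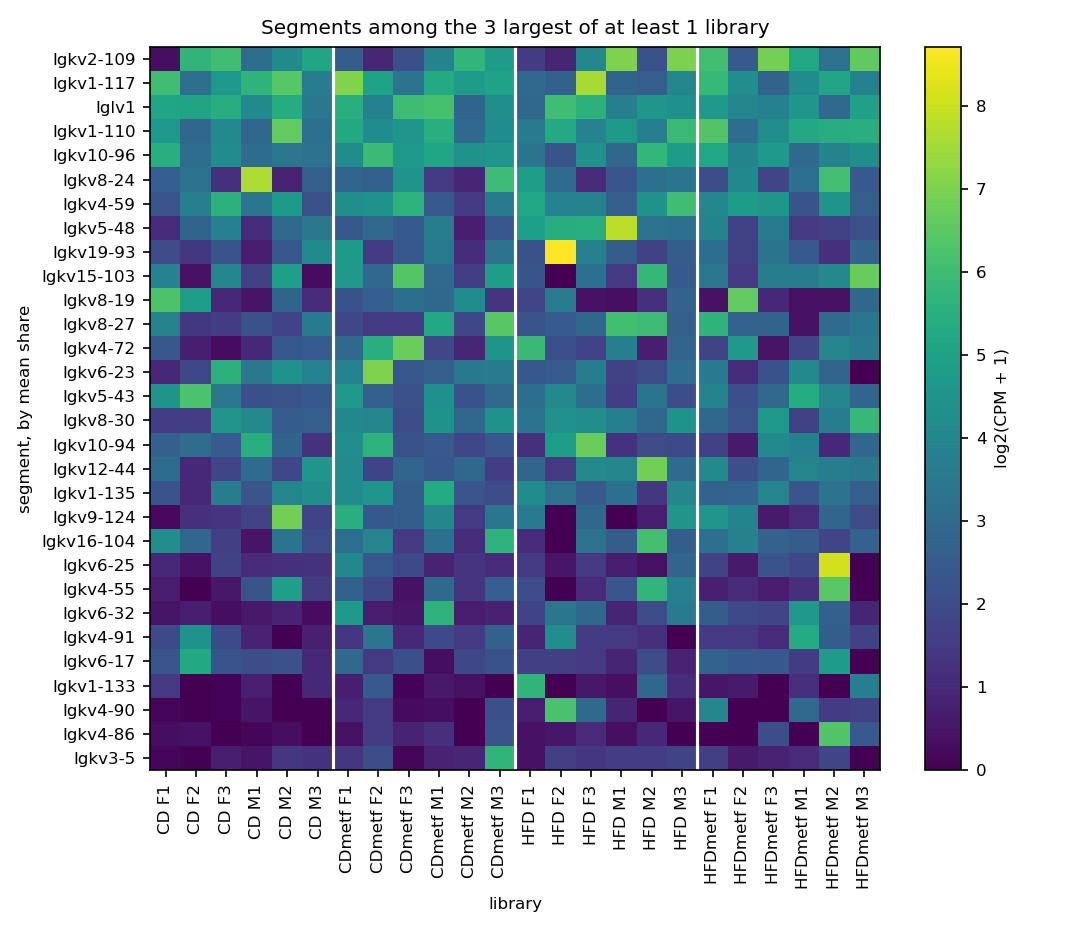
Levels of the 30 segments (rows) that were among the 3 largest in at least 1 of the 24 libraries (columns, by group), as log2(CPM + 1). Bright cells are scattered over libraries of all 4 groups, and the brightest are Igkv19-93 in HFD F2 (419 CPM) and Igkv6-25 in HFDmetf M2 (276 CPM).

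Diversity was measured as the effective number of segments, the number of equally used segments that would give the same inverse Simpson index. It was 4.58, 14.1 and 19.3 in CD as the lowest, median and highest library. The corresponding values were 10.9, 18.2 and 21.2 in CDmetf, 4.44, 12.2 and 18.2 in HFD, and 7.91, 12.8 and 23.3 in HFDmetf. The 3 lowest values belonged to HFD F2, CD M1 and HFD M1 (6.43), which were the libraries led by Igkv19-93, Igkv8-24 and Igkv5-48. Means ± SD were 13.3 ± 4.81, 17.1 ± 4.16, 11.4 ± 5.33 and 14.996 ± 6.489 in the same order (n = 6 each), and all groups overlapped.

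The differences in diversity between groups were close to their standard errors. On the log2 scale, HFD vs. CD differed by −0.27 (SE = 0.44) and HFDmetf vs. CDmetf by −0.27 (SE = 0.30). The mean was higher with metformin on both diets, by 0.45 in HFDmetf vs. HFD (SE = 0.41) and 0.45 in CDmetf vs. CD (SE = 0.33). No p is given for diversity, the leading share, the summed level or the lambda share, because the segments were chosen with results of these data known. With libraries matched only by their labelled sex and replicate number, HFDmetf was higher than HFD in 4 of 6 and CDmetf higher than CD in 5 of 6. Within replicate numbers the CDmetf vs. CD difference was 1.33, 0.16 and −0.14, so it was not of the same sign throughout. Without HFD M2 and HFD F2, HFD vs. CD was −0.10 and HFDmetf vs. HFD 0.29, and without CD M3 HFD vs. CD was −0.13 and CDmetf vs. CD 0.58. Single libraries moved these values further. CDmetf vs. CD was 0.17 without CD M1, HFDmetf vs. HFD was 0.21 without HFD F2, HFD vs. CD was −0.03 without HFD F2 and −0.55 without CD M1, and HFDmetf vs. CDmetf was −0.10 without HFDmetf M2.

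The mean share of the leading segment was 20.1 ± 11.7% in CD, 16.3 ± 3.61% in CDmetf, 25.2 ± 12.1% in HFD and 19.7 ± 8.98% in HFDmetf (SD, n = 6). HFD vs. CD differed by 5.14 percentage points (SE = 6.88), HFDmetf vs. CDmetf by 3.43 (SE = 3.95), HFDmetf vs. HFD by −5.49 (SE = 6.16) and CDmetf vs. CD by −3.79 (SE = 4.99). Without HFD M2 and HFD F2, HFD vs. CD was 2.55 and HFDmetf vs. HFD −2.91, and without CD M3 HFD vs. CD was 3.84 and CDmetf vs. CD −5.08. These values rested on single libraries. HFD vs. CD was 1.13 without HFD F2 and 9.89 without CD M1, HFDmetf vs. HFD was −1.48 without HFD F2, HFDmetf vs. CDmetf was 1.21 without HFDmetf M2, and CDmetf vs. CD changed sign to 0.966 without CD M1. With every library reduced to 649 reads, the number of segments seen was 50.6 ± 3.41 in CD, 58.2 ± 4.94 in CDmetf, 53.8 ± 6.13 in HFD and 56.6 ± 5.30 in HFDmetf. This number was 7.52 higher in CDmetf than in CD, by 9.75 in females and 5.29 in males, and by 9.09, 12.5 and 1.015 in replicate numbers 1, 2 and 3. It was not tested.

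**Figure D3:**
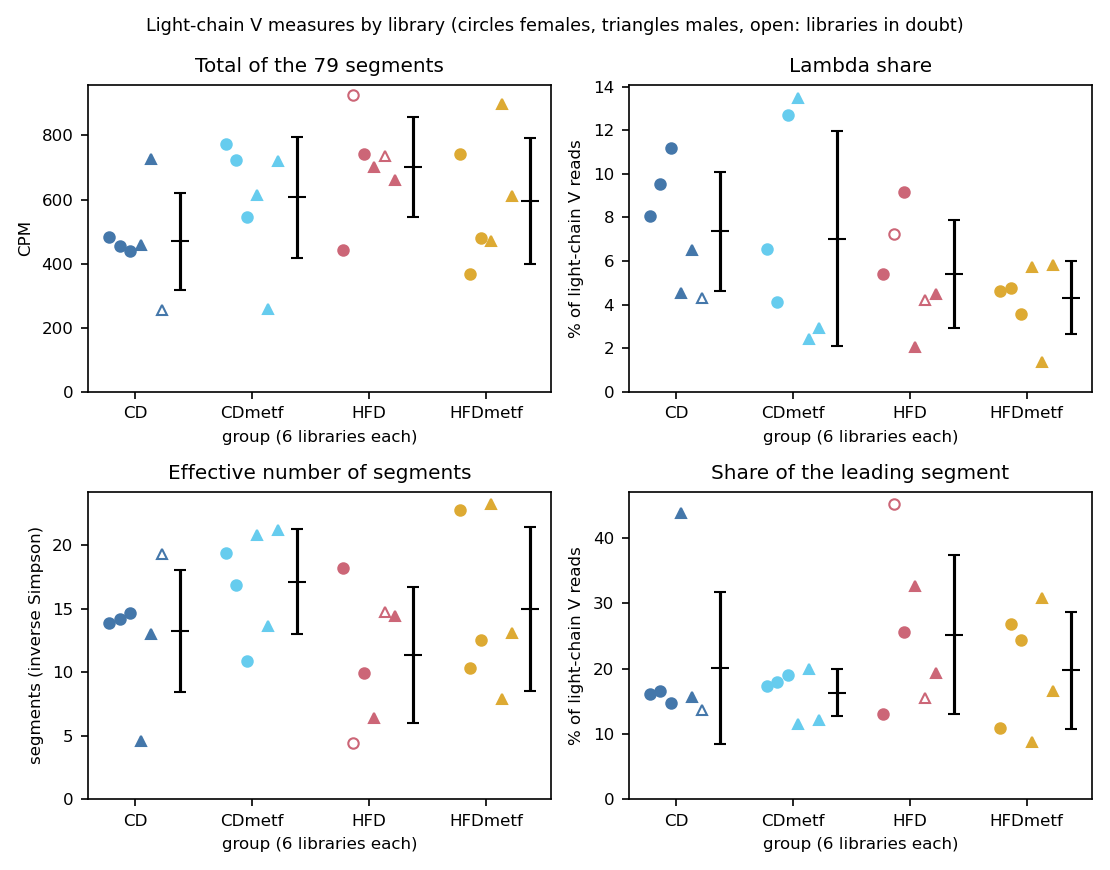
Summed light-chain V level (CPM), lambda share (%), effective number of segments and share of the leading segment (%) in each library of the 4 groups, with the mean ± SD as a bar (n = 6), females as circles, males as triangles and open symbols for HFD M2, HFD F2 and CD M3. All 4 measures overlap between all groups, and HFD lies highest in the summed level with a mean of 701 CPM against 469.8 CPM in CD.

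Libraries of the same group shared about as much of their segment use as libraries of different groups. The overlap of 2 libraries, the sum over segments of the smaller of their shares, had a median of 37.96% in the 60 pairs of the same group and 40.9% in the 216 pairs of different groups. The lowest overlap was 20.5%, between HFD F2 and HFD M2, and the highest was 63.3%, between CD F3 and HFDmetf F3. By group, the medians were 36.96% in CD, 45.1% in CDmetf, 33.4% in HFD and 37.9% in HFDmetf. These are descriptions, since pairs share libraries.

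The summed level of the light-chain V segments was 256 CPM in the lowest, 457 CPM in the median and 727 CPM in the highest CD library. In CDmetf it was 260.0, 668 and 774 CPM, in HFD 444, 718 and 926 CPM, and in HFDmetf 367, 546 and 897 CPM. HFD vs. CD was 0.61 on the log2 scale (SE = 0.24), a 1.52-fold difference of the geometric means, with HFD higher in 5 of 6 comparisons of libraries matched by label. The difference was 0.24, 0.52 and 1.06 in replicate numbers 1, 2 and 3. Without the leading segment of each library it was 0.51, without HFD M2 and HFD F2 0.47, and without CD M3 0.45. The other contrasts were −0.01 (SE = 0.31) for HFDmetf vs. CDmetf, −0.27 (SE = 0.24) for HFDmetf vs. HFD and 0.35 (SE = 0.31) for CDmetf vs. CD, which was 0.19 without CD M3. HFDmetf vs. HFD was −0.14 without HFD M2 and HFD F2.

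Among single segments, no member passed an FDR under 0.05 in any contrast by the quasi-likelihood test of edgeR. It was fitted to 14076 genes with labelled sex and replicate number as covariates. No fit with the sex of HFD M2 and HFD F2 exchanged was run. The background was also 0%, as none of the 14076 genes passed in any contrast. A total of 57 members, 54 kappa and 3 lambda, passed the filter on low counts and were tested. A limma-voom fit also called no member, and DESeq2 called 2 in HFD vs. CD (Igkv6-32 and Igkv4-90) and none elsewhere. The contrasts share groups of libraries, so that HFD vs. CD and CDmetf vs. CD use the same CD mice, and HFD vs. CD and HFDmetf vs. HFD the same HFD mice.

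In HFD vs. CD, Igkv6-32, Igkv5-48 and Igkv4-90 had the smallest p-values of the members, all with higher values in HFD. At an unadjusted p under 0.05, 11 of the 57 tested members were higher and 2 were lower in HFD, which is 19.3% and 3.51%, against 2.59% and 2.04% of all genes tested. Igkv6-32 and Igkv4-90 had at most 5 and 4 reads in any CD library and passed the filter on low counts through other groups. Such members could hardly come out lower in HFD, so the share of higher members depends in part on the filter. The median logFC of the 57 members was 0.45, compared with −0.00 over all genes, and 39 of them were above 0. When the light-chain V reads of each library replaced the library size, the counts were 7 higher and 5 lower with a median of −0.05. Shares of all genes were recorded for the main fit only, so counts under this and other settings have no background beside them. The smallest FDR of a member was 1.00 by the edgeR quasi-likelihood test.

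Igkv6-32 was the only member whose 6 HFD and 6 CD libraries did not overlap, and 0.0355% of all genes tested (5 of 14076) were separated in this direction. No member was separated with HFD lower, against 0.0497% of all genes tested. It had 1 to 5 reads in each CD library, or 0.235 to 0.793 CPM. In HFD it had 0.864 CPM in M1 (3 reads), 2.36 CPM in F1, 2.95 CPM in M2, 6.73 CPM in F3, 9.79 CPM in F2 and 11.0 CPM in M3. The gap between the groups was small, since HFD M1 and CD M2 both had 3 reads. Its logFC was 4.56 (SE = 1.19), and 4.25 without HFD M2 and HFD F2. By limma-voom it was 2.93 and by DESeq2 4.20. In CDmetf it reached 24.7 CPM in F1 and 48.3 CPM in M1 and stayed at 0.448 to 0.746 CPM in the other 4 libraries, and HFDmetf ranged from 0.880 to 24.4 CPM.

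Igkv5-48 stood at 1.12, 6.43 and 12.8 CPM in CD as the lowest, median and highest library, and at 8.12, 35.8 and 229 CPM in HFD. The groups overlapped through HFD M3 and HFD M2 (8.51 CPM), which were below CD M3 and CD F3. The logFC was 2.97 (SE = 0.82) and ranged from 1.87 without HFD M1 to 3.33 when each library was left out in turn, and it was 3.28 without HFD M2 and HFD F2. Igkv4-90 had no read in 3 of the 6 CD libraries and at most 0.408 CPM in the others. In HFD it reached 73.7 CPM in F2 and 7.15 CPM in F3, but was at 0 in M2, and its fitted logFC of 6.07 (SE = 1.83) is no bound because of the libraries at 0. It was 4.30 without HFD M2 and HFD F2, 3.54 by limma-voom and 7.29 by DESeq2.

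The 2 other marker segments overlapped between CD and HFD. Igkv4-72 was at 0.209, 2.58 and 4.70 CPM in CD and at 0.654, 4.75 and 57.7 CPM in HFD (lowest, median and highest). Igkv3-7 was at 0, 0.652 and 3.99 CPM in CD and at 0, 1.47 and 7.99 CPM in HFD. The logFC was 2.48 for Igkv4-72 (SE = 1.23) and 1.21 for Igkv3-7 (SE = 1.07). The high Igkv4-72 value belonged to HFD F1, which this segment led.

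**Figure D4:**
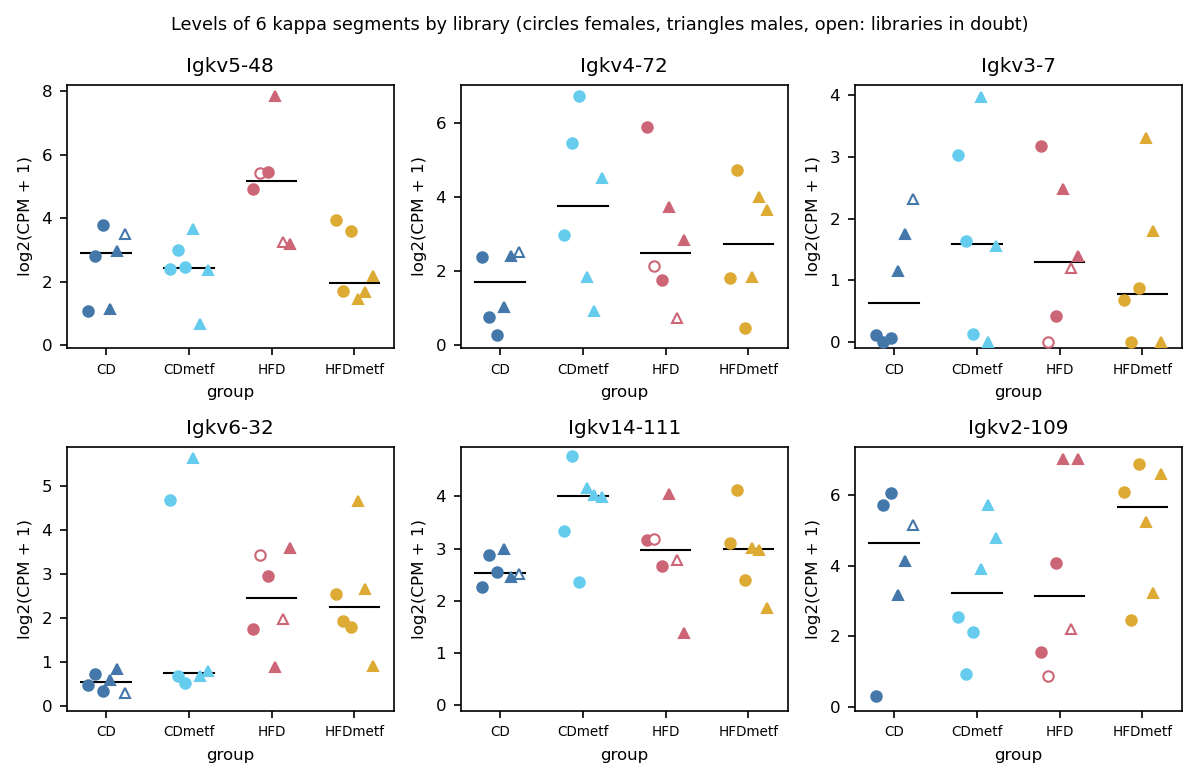
Levels of Igkv5-48, Igkv4-72, Igkv3-7, Igkv6-32, Igkv14-111 and Igkv2-109 in each library as log2(CPM + 1), by group, with the median as a black line, females as circles, males as triangles and open symbols for HFD M2, HFD F2 and CD M3. HFD lies above CD without overlap only for Igkv6-32, and Igkv5-48 in HFD is spread from 8.12 to 229 CPM.

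HFDmetf vs. HFD compared metformin with no metformin on the high-fat diet. The unadjusted counts were 3 members higher and 3 lower (5.26% each), against 3.79% and 2.82% of all genes tested, and the median logFC was −0.29 with 20 of 57 above 0. Without HFD M2 and HFD F2 the median was 0.10, of 72 members tested. With light-chain V reads as library size the counts were 8 higher and 3 lower.

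Igkv5-48 stood at 1.74, 2.89 and 14.2 CPM in HFDmetf, below the 35.8 CPM median of HFD, and the groups overlapped. Its logFC moved from −3.18 with all libraries to −2.02 without HFD M1 and to −3.38 without HFD M2 and HFD F2. Igkv3-4 was at 0, 0.532 and 3.08 CPM in HFDmetf against 0.406, 6.05 and 33.1 CPM in HFD (logFC = −2.83, SE = 0.94), and it was −2.09 without HFD M2 and HFD F2. Igkv6-17 went the other way, from 0.812, 1.92 and 2.95 CPM in HFD to 0, 4.38 and 27.5 CPM in HFDmetf (logFC = 1.72, SE = 0.69), with 0.92 without HFDmetf M2 and 1.43 without HFD M2 and HFD F2. For all 3 the FDR was 0.639 by the edgeR quasi-likelihood test.

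CDmetf vs. CD compared metformin with no metformin on the control diet. At an unadjusted p under 0.05, 9 members were higher and none was lower in CDmetf (15.8% and 0%), against 2.74% and 2.41% of all genes tested. Igkv6-32 was among the 9, and members so near 0 in CD could hardly come out lower here either. The share of higher members therefore depends in part on the filter in this contrast as well. The median logFC of members was 0.68, and 42 of 57 were above 0. With light-chain V reads as library size, 9 were higher and 2 lower, and the median was 0.29.

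Igkv14-111 had the smallest p here. It was even in CD, at 3.83, 4.77 and 6.94 CPM, and higher in CDmetf at 4.11, 15.1 and 26.5 CPM, where CDmetf F3 alone fell within the CD range (logFC = 1.38, SE = 0.36). Igkv6-15 was at 1.64, 5.41 and 15.7 CPM in CD and at 7.74, 20.3 and 32.8 CPM in CDmetf (logFC = 1.87, SE = 0.57). The Igkv6-32 logFC of 3.93 (SE = 1.19) came from CDmetf F1 and M1, and was 2.99 without CDmetf M1. By limma-voom it was 2.11 and by DESeq2 3.33. Igkv4-72 reached 104 CPM in CDmetf F3, which it led, and ranged down to 0.897 CPM in CDmetf M2. The FDR of the first 3 was 0.940 by the edgeR quasi-likelihood test.

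HFDmetf vs. CDmetf compared the diets under metformin. Here 1 member was higher and 1 lower at an unadjusted p under 0.05 (1.75% each), against 3.84% and 4.04% of all genes tested. The counts were 8 and 4 by limma-voom, and 5 and 4 with no filter on low counts. The median logFC was −0.37 and 26 of 57 were above 0, but the median was 0.05 by limma-voom. The lower member was Igkv14-111, at 2.64, 6.99 and 16.4 CPM in HFDmetf (logFC = −1.02, SE = 0.37). The higher was Igkv13-84, at 0, 0.639 and 11.6 CPM in HFDmetf against 0, 0.549 and 1.69 CPM in CDmetf, with a logFC of 1.89 (SE = 0.86) that was 0.89 without HFDmetf F3.

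The interaction compared the effect of metformin on the high-fat diet with that on the control diet. At an unadjusted p under 0.05, 1 member was higher and 10 were lower (1.75% and 17.5%, against 3.04% and 2.99% of all genes tested), and the median logFC was −1.02. With light-chain V reads as library size these counts were 6 and 4, with a median of −0.44. Members near 0 in CD enter this contrast too. The smallest p-values belonged to Igkv6-32 (logFC = −4.67, SE = 1.45), Igkv14-111 (logFC = −1.46, SE = 0.52) and Igkv4-57 (logFC = −2.43, SE = 0.98). By limma-voom the value was −1.40 for Igkv6-32 and 0.02 for Igkv4-57, and with light-chain V reads as library size it was −0.65 for Igkv14-111. The smallest FDR of a member was 0.708 by the edgeR quasi-likelihood test.

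Lambda segments took a small part of the light-chain V reads. The lambda share was 4.31, 7.29 and 11.2% in CD as the lowest, median and highest library, 2.41, 5.34 and 13.5% in CDmetf, 2.05, 4.95 and 9.15% in HFD, and 1.36, 4.71 and 5.83% in HFDmetf. Means ± SD were 7.36 ± 2.75%, 7.03 ± 4.92%, 5.43 ± 2.48% and 4.32 ± 1.67% (n = 6). The lowest library, HFDmetf M2, was the library dominated by the kappa segment Igkv6-25. CDmetf M1 had the highest share and was the only library led by a lambda segment, Iglv1 with 11.5% of the reads (interval 10.3 to 12.8%).

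The lambda share had lower means on the high-fat diet, but the groups overlapped. HFD vs. CD differed by −1.93 percentage points (SE = 1.51) and HFDmetf vs. CDmetf by −2.71 (SE = 2.12). HFDmetf vs. HFD differed by −1.10 (SE = 1.22) and CDmetf vs. CD by −0.324 (SE = 2.30). The sign of HFD vs. CD and of HFDmetf vs. CDmetf was the same in all 3 replicate numbers. Without CD M3, HFD vs. CD was −2.54 and CDmetf vs. CD −0.933, and without HFD M2 and HFD F2 HFD vs. CD was −2.08 and HFDmetf vs. HFD −0.954. Without CD F3 HFD vs. CD was −1.17, without CDmetf M1 HFDmetf vs. CDmetf was −1.42, without HFD F3 HFDmetf vs. HFD was −0.358, and without CDmetf M2 CDmetf vs. CD changed sign to 0.601.

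Iglv1 held most of the lambda reads, at 9.87, 33.5 and 41.8 CPM in CD, 5.98, 30.9 and 70.7 CPM in CDmetf, 6.66, 21.4 and 64.3 CPM in HFD, and 6.87, 18.5 and 30.4 CPM in HFDmetf. Iglv2 had medians of 2.48, 3.88, 6.35 and 3.70 CPM in the same order and ranged from 0 in CDmetf M2 to 18.4 CPM in HFD F3. Iglv3 had medians of 1.99, 3.16, 2.14 and 1.72 CPM and at most 6.02 CPM, in CDmetf F2. In HFD F1, Iglv2 with 520 reads exceeded Iglv1 with 285 reads. The logFC in HFD vs. CD was −0.07 for Iglv1 (SE = 0.55), 1.29 for Iglv2 (SE = 0.85) and 0.36 for Iglv3 (SE = 0.54), and none of the 3 reached an unadjusted p under 0.05 in any contrast.

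Iglv1 followed the constant gene Iglc1, and Iglv2 followed Iglc2. Over the 24 libraries, log2(CPM + 1) of Iglv1 and Iglc1 had a Pearson r of 0.861 and a Spearman rho of 0.878, with adjusted permutation p-values of 4.5e-05 and 9e-05 over 9 relations, from the smallest raw p that 100000 permutations can give. The r was 0.852 without the 2 libraries farthest from the median of Iglv1 and 0.764 to 0.910 within replicate numbers. For Iglv2 and Iglc2 both r and rho were 0.760 (adjusted permutation p = 4.5e-05 and 0.000315). It was 0.707 without the 2 farthest libraries and 0.665 to 0.882 within replicate numbers, but −0.0262 among the 6 CD libraries.

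The crossed combinations had lower coefficients over all 24 libraries. Iglv1 with Iglc2 had an r of 0.0379 and a rho of 0.0470 (adjusted permutation p = 0.863 and 0.827), although the V exons of Iglv1 and Iglv2 are 97.0% identical. Iglv2 with Iglc1 had an r of 0.259, but it was 0.782 within CD, 0.654 within CDmetf, −0.164 within HFD and 0.645 within HFDmetf, and so above that of Iglv2 with Iglc2 in CD. Within HFD, Iglv1 with Iglc2 had an r of −0.732. Iglc3 had an r of 0.427 with Iglv1, 0.481 with Iglv2 and 0.459 with Iglv3, with adjusted permutation p-values of 0.0694, 0.0522 and 0.0566. For Iglv3 and Iglc3 the rho of 0.511 had an adjusted permutation p of 0.0333, and the r was 0.343 without the 2 farthest libraries. Iglv3 had an r of 0.220 with Iglc1 and 0.405 with Iglc2. Values share a library and its depth, so these relations describe the libraries. The permutations moved values over all 24 libraries without regard to group, sex or replicate number. Their p-values therefore concern any relation of a pair of genes, and not a preference of a V segment for a constant gene.

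**Figure D5:**
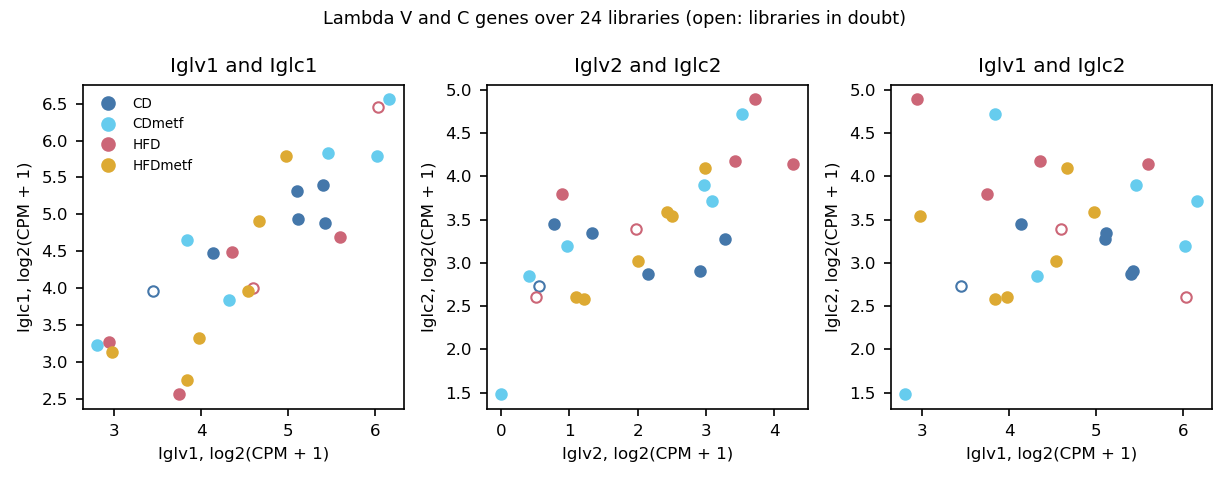
Levels of lambda V segments (horizontal axis) against lambda constant genes (vertical axis) in the 24 libraries, both as log2(CPM + 1), coloured by group, with open symbols for HFD M2, HFD F2 and CD M3. High Iglv1 goes with high Iglc1 (r = 0.861) and high Iglv2 with high Iglc2 (r = 0.760), while the points of Iglv1 and Iglc2 are scattered (r = 0.0379).

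The constant genes and the plasma cell partner Jchain, which links IgA into dimers, give another readout of the same cells. Kappa V reads numbered 0.155 to 0.479 per Igkc read, and light-chain V reads 1.08 to 2.31 per Jchain read. Lambda constant reads made up 0.907 to 7.24% of the light-chain constant reads. In HFD vs. CD the logFC was 0.47 for Igkc (SE = 0.34), 0.47 for Jchain (SE = 0.31), 0.22 for Igha, the IgA heavy chain (SE = 0.28), and 0.97 for Iglc2 (SE = 0.39). None passed an FDR under 0.05 in any contrast by the edgeR quasi-likelihood test. Of 13 constant and joining genes of the light chains 4 were tested, with 1 higher in HFD vs. CD and 1 lower in the interaction before adjustment (against 2.59% and 2.99% of all genes tested), and Iglj2 was at 0 in every library. The heavy-chain constant genes and Jchain made a list of 9 genes in all, of which 8 were tested. Before adjustment, 0 of the 8 were higher and 0 lower in HFD vs. CD. There were 4 lower in HFDmetf vs. CDmetf, 2 lower in HFDmetf vs. HFD and 2 higher in CDmetf vs. CD. Of all genes tested, 4.04%, 2.82% and 2.74% reached this in the last 3 contrasts. In the interaction 5 of the 8 were lower, against 2.99%.

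All 14 B-cell markers were tested, and before adjustment 10 reached a p under 0.05 with higher values in HFD vs. CD, 12 were higher in CDmetf vs. CD, 12 were lower in HFDmetf vs. HFD and 12 were lower in HFDmetf vs. CDmetf. Of all genes tested, 2.59%, 2.74%, 2.82% and 4.04% reached this in the same directions. Their median logFC was 1.76, 2.10, −2.09 and −2.42 in that order. Against 2.99% of all genes tested, all 14 reached such a p with lower values in the interaction (median logFC −4.19). Their summed level was 237 to 591 CPM in CD, 207 to 1302 CPM in CDmetf, 204 to 1041 CPM in HFD and 284 to 560 CPM in HFDmetf, and none was at 0 in every library. Plasma cell markers, of which 9 of 12 were tested, summed to 328 to 467 CPM in CD, 405 to 475 CPM in CDmetf, 338 to 482 CPM in HFD and 306 to 402 CPM in HFDmetf, with 1, 2, 0 and 1 at an unadjusted p under 0.05 in the same order of contrasts. In the interaction 2 plasma cell markers were lower at such a p, against 2.99% of all genes tested. The part of B cells and plasma cells in the differences between segments was not tested.

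Markers of other cells are given by their counts. In HFD vs. CD at p under 0.05 before adjustment, 1 of 5 germinal centre markers tested and 2 of 7 T-cell markers were higher, 0 of 10 epithelial markers differed, and 2 of 7 smooth muscle, 4 of 6 exocrine pancreas and 2 of 7 adipocyte markers were lower, against 2.59% higher and 2.04% lower of all genes tested. In CDmetf vs. CD, 1 germinal centre marker was lower, 1 T-cell marker was higher and 2 exocrine pancreas markers were lower, against 2.74% higher and 2.41% lower of all genes tested. In HFDmetf vs. CDmetf, 5 T-cell and 2 epithelial markers were lower, against 4.04% of all genes. There 3 exocrine pancreas and 1 adipocyte marker were higher (3.84%). In HFDmetf vs. HFD, 3 T-cell, 1 germinal centre and 1 epithelial marker were lower (2.82%). There 4 exocrine pancreas, 1 smooth muscle and 1 adipocyte marker were higher (3.79%). In the interaction 6 T-cell markers were lower (2.99%), and 5 exocrine pancreas and 4 adipocyte markers higher (3.04%). Of 7 genes of light-chain rearrangement and pre-B cells none passed the filter, and their summed level was 0 to 6.62 CPM.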

How the data were processed

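Total RNA of the ileum was depleted of ribosomal RNA, and libraries were made with a directional kit and sequenced as paired reads of 100 bases. The authors trimmed reads with Trimmomatic 0.39 (window 5, quality 25, minimum length 30), mapped them to GRCm38 with STAR 2.5.3a and deposited raw read counts per gene. Multimapping reads (4.31 to 9.74% per library) and ambiguous reads (1.86 to 12.6%) were not counted, and their number was not broken down by segment. The counted strand is not given in the sources used here. The members, the marker lists and the tests were chosen with earlier results of these data known.

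Gene biotypes and exons came from GENCODE on GRCm38, and all 55536 genes matched. CPM used TMM-scaled library sizes. Differences between groups were tested with edgeR 4.0.16 (R 4.3.3), using its quasi-likelihood test on 14076 genes that passed filterByExpr. Group, labelled sex and replicate number were in the model (17 residual degrees of freedom), and the false discovery rate was by Benjamini-Hochberg. The edgeR test replaced limma-voom, the test of the study's methods, which was run as an alternative (limma 3.58.1), as was DESeq2 1.42.0. The edgeR procedure was run on simulated counts for HFD vs. CD, drawn with the average spread of genes at each level. They did not model segments that are high in a single library, so they give no error rate for the members. Summed level, diversity, lambda share and leading share are given as differences with their standard error (Python 3.11.15, SciPy 1.17.1), with no p. Other alternatives were RLE size factors, TMM without immunoglobulin genes, no filter, no replicate block, light-chain V reads as library size, libraries left out, and Shannon diversity. Segments were named if they were markers, among the 10 with the highest mean CPM, lambda, among the 3 smallest p-values of a contrast, or leading in a library, and some others were chosen after their values were seen. Nothing says that replicate numbers mark the blocks in time. Each library is 1 animal of its own cage.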

Additional observations from a re-analysis of the deposited data

Results flagged for a closer look

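In groups of 6 libraries, 11 of 132 sets of values had a single library far from the other 5 (Dixon's ratio above its 95% critical value), over 29 named segments on the log2(CPM + 1) scale and 4 measures. Chance alone marks about 1 in 20 such sets where the values had no part in choosing them. That share does not apply to the segments here, since 16 of them were named because they led a library.

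Among the measures, the summed light-chain V level of CDmetf M2 was 260.0 CPM, with the next library at 547 CPM. CD M1 had an effective number of 4.58 segments, against 13.006 in the next library, and a leading share of 43.8%, against 16.5%. Both values of CD M1 belong to Igkv8-24, which was at 201 CPM there and at 8.66 CPM in the next CD library.

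Among the other segments, Igkv19-93 was at 419 CPM in HFD F2 (next 12.9 CPM), Igkv6-25 at 276 CPM in HFDmetf M2 (next 3.81 CPM) and Igkv1-117 at 189 CPM in HFD F3 (next 14.6 CPM). Igkv6-23 was at 129 CPM in CDmetf F2 (next 13.6 CPM), Igkv9-124 at 114 CPM in CD M2 (next 2.45 CPM) and Igkv6-17 at 38.3 CPM in CD F2 (next 3.91 CPM). Igkv4-90 was at 0.408 CPM in CD M1 (4 reads), with the next CD library at 0.0798 CPM (1 read), so that this distance rests on few reads.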

How the results depend on the processing

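No segment passed an FDR under 0.05 in any contrast with limma-voom, RLE size factors, TMM without immunoglobulin genes, no filter, no replicate block, light-chain V reads as library size, without HFD M2 and HFD F2, without CD M3 or with any single library left out. DESeq2 called 2 in HFD vs. CD, Igkv6-32 (adjusted p = 0.0228, logFC 4.20) and Igkv4-90 (adjusted p = 0.0274, logFC 7.29). The share of all genes that it called was not recorded, and the cause was not tested. Without HFD M2 and HFD F2, 12 members were higher and 1 lower in HFD vs. CD at an unadjusted p under 0.05, and 16 and 0 in CDmetf vs. CD, of 72 tested. Without CD M3 the counts were 12 and 2, and 12 and 0, of 70 tested. With no filter they were 21 and 3, and 16 and 0, of 79. In HFDmetf vs. CDmetf limma-voom had 8 and 4, no filter 5 and 4, and in HFDmetf vs. HFD limma-voom had 6 and 8. None of these counts has a share of all genes beside it, since that share was recorded for the main fit only.

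Some differences near 0 changed sign. The diversity interaction of 0.00 was −0.16 without HFD M2 and HFD F2, −0.13 without CD M3, −0.0729 by Shannon diversity at equal reads, and −0.24 to 0.28 with 1 library left out. The interaction of the leading share (−1.71) was 0.880 without HFD M2 and HFD F2 and −6.46 to 2.30 with 1 left out. With 1 library left out, the lambda share spanned −1.62 to 0.601 in CDmetf vs. CD and −1.70 to 0.512 in the interaction, the leading share in CDmetf vs. CD −5.08 to 0.966 (the highest without CD M1), and the summed level in HFDmetf vs. CDmetf −0.24 to 0.12. Igkv4-57 in the interaction was 0.0206 by limma-voom. The leading share spanned 1.13 to 9.89 in HFD vs. CD, −7.93 to −1.48 in HFDmetf vs. HFD and 1.21 to 5.63 in HFDmetf vs. CDmetf, and diversity 0.17 to 0.58 in CDmetf vs. CD, 0.21 to 0.62 in HFDmetf vs. HFD, −0.55 to −0.03 in HFD vs. CD and −0.41 to −0.10 in HFDmetf vs. CDmetf. The cause of these was not tested.

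The replicate numbers entered the edgeR model as a covariate but were not taken to pair the samples, because not every pair's correlation was above 0.1. Comparisons of libraries matched by label are descriptions only. Deviations from the group means had a mean correlation of 0.168 over 36 pairs with the same number and labelled sex (−0.437 to 0.757), 0.130 over 72 pairs with the same number and −0.0642 over 144 pairs with different numbers. The 8 libraries with number 2 all had low depth (1829690 to 3466430 reads), so number and depth go together in part. Without the replicate block 52 members were tested and HFD vs. CD had 11 higher and 2 lower, as with it. With the replicate block the measures keep their differences (summed level 0.61 in HFD vs. CD), since the numbers are balanced over groups. Depth limits the lower segments, since 3 reads are 0.0701 to 1.70 CPM depending on the library.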

Other observations

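Use by V family was uneven. The Igkv1 family, with 6 members, and the Igkv4 family, with 20 members, each held 14.3% of the light-chain V reads on average over the 24 libraries. Igkv8 followed with 12.4% and Igkv6 with 9.73%. Igkv6 was at 4.85 ± 1.80% in HFD and at 8.33 ± 3.52% in CD, 12.3 ± 5.65% in CDmetf and 13.4 ± 12.5% in HFDmetf (SD, n = 6), as a description chosen after the values were seen. Its highest library was HFDmetf M2 with 37.9%. Igkv2, with 2 members, ranged from 0.0660% in CD F1 to 24.4% in HFDmetf F3. Igkv7, with a single member, held 0.0682%.

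Along the kappa locus, 29 members lay within 1000 kb of Igkj1, the first kappa J segment, and held 37.2 ± 11.5% of the kappa V reads (SD, n = 24). The 25 members at 1000 to 2000 kb held 20.3 ± 12.2% and the 22 members beyond 2000 kb held 42.5 ± 12.5%. The middle stretch reached 64.8% in its highest library. Members on the minus strand, 48 in number, held 59.6 ± 10.3%.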
